A study of Mus musculus with 18 samples.

Results

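The genes that mark the B-lymphocyte lineage, from the first progenitors to the antibody-secreting plasma cell, were followed in preparations of adipocytes from 2 depots and 3 ages. The list holds 37 genes, chosen by symbol for their known place in the lineage, with earlier results of these data already known. A gene was measured where a probe set named it and no other gene, and 36 of the 37 were measured, out of 19938 genes with such a probe set. The remaining member, Cd38, was not analysed here. Each of the 36 has a single probe set of this kind, so no choice between probe sets was needed. The members were set in 6 groups by the step at which they act: 5 recombination and interleukin-7 (IL-7) genes of pro-B cells, 4 surrogate light chain genes of pre-B cells, 7 transcription factors, 6 genes of the B cell receptor and its relay, 10 surface proteins of immature and mature B cells, and 4 measured genes of plasma and activated cells.

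RNA was taken from bone marrow adipocytes and from epididymal white adipocytes (called peripheral adipocytes in the deposited labels) of male C57BL/6J mice on standard chow, at 6, 14 and 18 months of age. No genotype or treatment separates the groups, and bone marrow and epididymal cells came from the same mice. Each of the 6 groups had 3 Affymetrix arrays, hybridised with 3 pooled RNA preparations from 6 to 10 animals, so a replicate is a pool and not a mouse. Marrow was flushed from femur and tibia and its floating cells were taken, epididymal fat was digested with collagenase first, and neither preparation was sorted by a surface marker. The paper describes its values as gcRMA estimates, quantile normalised, on a log2 scale, on which a difference of 1 is a 2-fold change. The deposited values run from 1.90 to 14.64. Array medians lie between 5.33 and 5.65, so the arrays do not share a common median. Those of the 3 epididymal arrays at 18 months are the lowest (5.33 to 5.39), which bears on counts of low values there. The table holds no detection call, so low values were set against 5.54, the median of all values. All 9 epididymal arrays lay under it for Rag1, Rag2, Dntt, Vpreb1 and Cr2, and all 9 marrow arrays for Rag2. In epididymal preparations all 3 arrays lay under it for 17 of the 36 members at 6 months, 5 at 14 months and 26 at 18 months, and for Rag2, Vpreb1 and Cr2 in bone marrow at 6 months. Such values were not shown to be above background, so a difference measured against them is no exact fold, and a narrow range among them does not show that RNA stayed the same. The number of arrays limits the precision. When each age was collected is not given in the sources used here, and an effect of handling cannot be told apart from one of age. As a check of the labelled cell type, Adipoq, the adipocyte hormone adiponectin, read 12.22 to 12.87 on the epididymal arrays and 6.43 to 9.05 on the marrow arrays, and Plin1, the lipid droplet protein perilipin, 12.18 to 12.70 and 5.40 to 6.74.

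B cells arise in the bone marrow. A progenitor needs signals from IL-7, and the transcription factors Ebf1 and Pax5 commit it to the lineage. The Rag1 and Rag2 recombinase then joins the segments of the heavy chain gene while Dntt, the enzyme terminal transferase, adds bases at the joints. A finished heavy chain is tested at the surface together with the surrogate light chain, made by the Vpreb genes and Igll1, before the light chain gene is joined. The cell that passes carries a complete receptor with the signalling chains Cd79a and Cd79b, leaves the marrow, and gains proteins of the mature B cell such as Ms4a1 (CD20), Cr2 (CD21) and Fcer2a (CD23). Plasma cells, the last stage, secrete antibody, and many return to the marrow. Adipose tissue holds mature B cells but is not known as a place where they are made.

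Start-site windows of 300 bases are printed for 5 members that carry the stages compared here: the recombinase gene Rag1, both partners of the surrogate light chain, the receptor chain Cd79a, and Cr2, a gene of the mature cell. RefSeq (GRCm38.p6) gave a window for 29 of the 36 measured members. Capitals mark the letters CAGGTG, an E-box of the kind bound by E2A proteins, or CACCTG where the same letters lie on the other strand. All 5 printed windows hold this E-box, so they do not stand for all members. The windows of Dntt, Il7r, Rag2, Pax5 and Ebf1, among others, do not hold it. In none of the windows that held the E-box did it overlap another motif searched. All windows run 5′ to 3′ along the gene.
Rag1, chr2:101649483-101649782, - strand: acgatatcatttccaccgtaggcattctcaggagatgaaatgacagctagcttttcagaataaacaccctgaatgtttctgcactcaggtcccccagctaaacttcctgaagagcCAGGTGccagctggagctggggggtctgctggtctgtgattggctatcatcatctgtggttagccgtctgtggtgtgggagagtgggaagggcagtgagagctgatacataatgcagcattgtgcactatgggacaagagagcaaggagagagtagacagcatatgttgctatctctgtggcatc
Vpreb1, chr16:16869206-16869505, - strand: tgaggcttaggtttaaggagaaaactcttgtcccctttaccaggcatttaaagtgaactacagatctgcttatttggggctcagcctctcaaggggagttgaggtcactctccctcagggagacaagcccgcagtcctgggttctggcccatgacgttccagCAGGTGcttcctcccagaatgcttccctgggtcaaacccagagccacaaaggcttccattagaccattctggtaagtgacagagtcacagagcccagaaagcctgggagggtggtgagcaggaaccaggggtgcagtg
Igll1, chr16:16863936-16864235, - strand: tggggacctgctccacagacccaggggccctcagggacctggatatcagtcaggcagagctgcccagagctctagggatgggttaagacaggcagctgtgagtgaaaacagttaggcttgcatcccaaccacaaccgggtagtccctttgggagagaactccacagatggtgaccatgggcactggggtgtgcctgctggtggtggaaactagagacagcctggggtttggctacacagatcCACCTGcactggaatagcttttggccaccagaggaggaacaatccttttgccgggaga
Cd79a, chr7:24897247-24897546, + strand: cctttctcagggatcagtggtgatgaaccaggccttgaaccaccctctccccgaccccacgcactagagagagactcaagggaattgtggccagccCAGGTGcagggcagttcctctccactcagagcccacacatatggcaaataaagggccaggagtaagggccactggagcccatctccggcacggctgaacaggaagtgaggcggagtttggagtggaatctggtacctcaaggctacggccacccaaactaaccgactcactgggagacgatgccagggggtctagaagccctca
Cr2, chr1:195176670-195176969, - strand: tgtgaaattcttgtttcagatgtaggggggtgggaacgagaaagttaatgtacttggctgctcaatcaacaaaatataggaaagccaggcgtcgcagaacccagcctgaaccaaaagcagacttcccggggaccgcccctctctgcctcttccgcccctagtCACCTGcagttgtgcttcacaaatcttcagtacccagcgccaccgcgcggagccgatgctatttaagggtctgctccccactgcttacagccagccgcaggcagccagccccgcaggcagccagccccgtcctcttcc

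Searched on both strands, CAGGTG lay in 13 of the 29 windows (44.8%), against 20.0% of the windows of 27025 genes of the same length. Besides the genes printed, the E-box was found for Vpreb2, Blnk, Bank1, Cd22, Cd37, Fcrla, Tnfrsf13c and Fcmr. The octamer ATTTGCAT, the site of Oct factors such as the member Pou2f2, lay in the windows of Vpreb3 and Blnk, which is 6.9% of the members against 1.75% of all genes. CCCNNGGGA, a form of the Ebf1 site, was held by 6.9% (Cd22 and Sdc1) against 6.43%, and TGGGAA, the core bound by Ikaros proteins such as Ikzf3, by 20.7% against 25.5%. These matches describe letters in a window and say nothing of binding. Igll1 and Vpreb1 are neighbours, as are Rag1 and Rag2.

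Most B-lineage genes read higher in bone marrow preparations than in epididymal preparations. Averaged over the ages, 29 of 36 members were higher in bone marrow (adjusted p under 0.05 and at least 2-fold), where 10.2% of all tested probe sets were, and 1 was lower, where 11.6% were. The members' median log2 difference was 2.53, against -0.02 for all tested probe sets. For single genes, a value after ± is the standard error (SE) of the fitted log2 difference unless SD is written. By age the members higher in bone marrow numbered 29 at 6 months, 32 at 14 months and 29 at 18 months, beside 11.4%, 9.91% and 10.9% of all probe sets. Alternative fits changed the scaling, filter, test or samples. Of the calls in either direction, 22 of 30 at 6 months, 27 of 32 at 14 and 25 of 30 at 18 were kept under all of these fits. Markers of other marrow cells differed in the same direction. Over the ages all 10 neutrophil markers were higher in bone marrow (median 6.02, summed linear level of 45100 to 61100 against 648 to 9130), as were all 7 erythroid markers (4.31, 12000 to 24900 against 690 to 1970) and all 9 proliferation genes (6210 to 12700 against 321 to 765). Of the macrophage markers 6 of 9 were higher (1.38, 4700 to 9480 against 796 to 12400), of the dendritic cell markers 5 of 9 and of the T and NK cell markers 4 of 14. The neutrophil and erythroid medians were above that of the members, and the part of these cells in the members' differences was not tested. These are whole preparations, in which fewer B-lineage cells and less RNA per cell cannot be told apart.

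**Figure D1:**
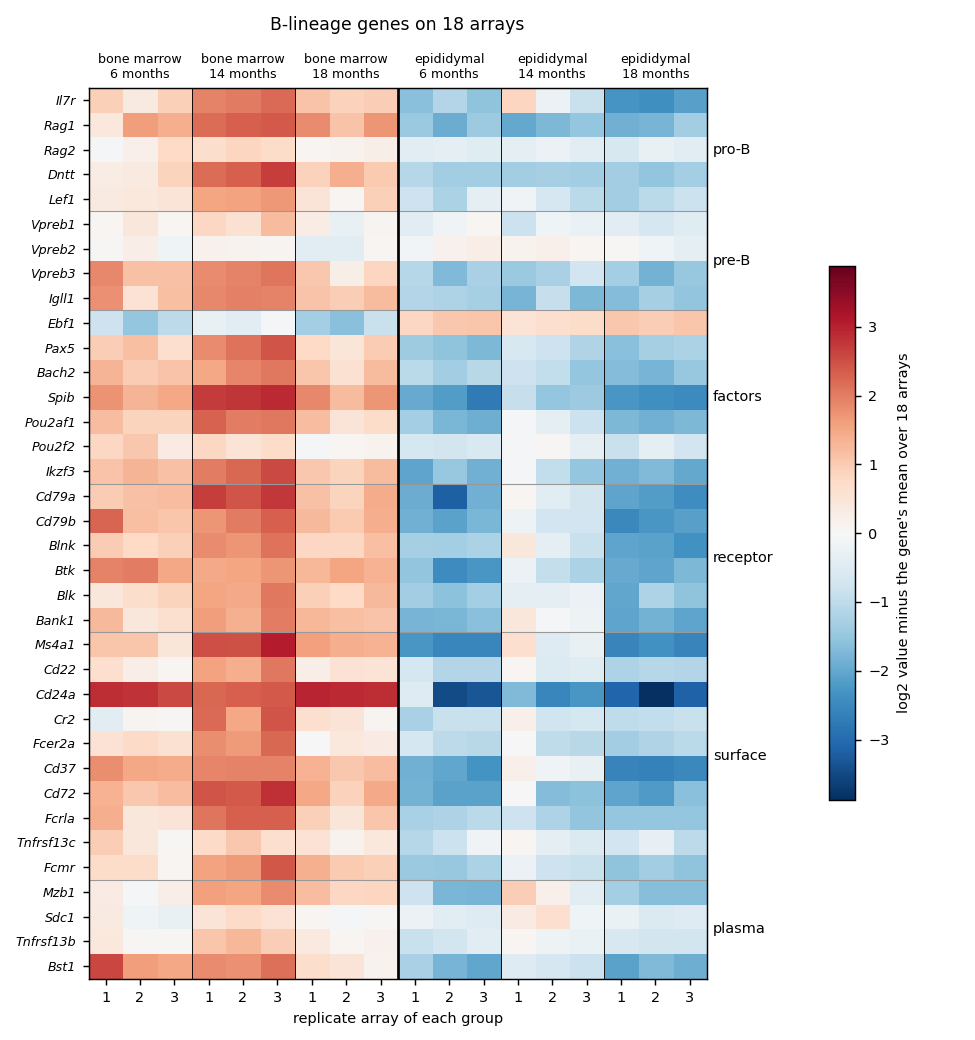
Heat map of 36 B-lineage genes (rows, grouped by stage) on 18 arrays (columns, 3 replicates per cell type and age). Color gives the log2 value minus the gene's own mean over the 18 arrays. The 14-month bone marrow arrays are the reddest columns for most genes, and Ebf1 is red in the epididymal columns.

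Among the pro-B genes, 4 of 5 were higher in bone marrow over the ages. Dntt read 5.90, 5.95 and 6.48 in bone marrow at 6 months, 7.76, 7.93 and 8.28 at 14 months and 6.51, 7.01 and 6.61 at 18 months, and between 4.07 and 4.51 on all 9 epididymal arrays. The lowest marrow array thus lay above the highest epididymal array, with a mean difference of 2.66 ± 0.10 (SE), limma adjusted p = 6.26e-15. Rag1 read between 6.68 and 8.66 in bone marrow and between 4.29 and 4.93 in epididymal preparations, a difference of 3.34 ± 0.15 (SE), limma adjusted p = 1.74e-13. All epididymal values of both genes lay under the median of all values, so neither difference is an exact fold. Il7r, the receptor for IL-7 and not particular to B cells, differed by 2.52 ± 0.16, and its marrow and epididymal ranges overlapped, with epididymal preparations at 14 months reaching 8.08. Lef1, a Wnt-pathway factor of pro-B cells, differed by 1.66 ± 0.13, and this call ended with ribosomal protein genes set equal. Rag2 was above its epididymal range on every marrow array, but by 0.80 ± 0.09, short of the 2-fold limit over the ages, which it passed at 14 months (1.07 ± 0.15). Its values stood between 3.07 and 4.51 on all 18 arrays.

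The surrogate light chain genes were split. Igll1 read 8.51, 7.30 and 7.91 in bone marrow at 6 months, 8.62, 8.71 and 8.68 at 14 months and 7.86, 7.69 and 7.99 at 18 months. In epididymal preparations the same gene read 5.62, 5.54 and 5.45, 4.95, 5.84 and 5.01 and 5.07, 5.44 and 5.21. No marrow array overlapped an epididymal one, and the difference over the ages was 2.79 ± 0.14 (SE), limma adjusted p = 7.81e-13. Vpreb3, a related protein of the secretory pathway, differed by 2.69 ± 0.14. Vpreb1 differed by 0.74 ± 0.12 with overlapping ranges, and it was called only at 14 months (1.30 ± 0.20). Vpreb2 stood between 6.06 and 6.78 on all arrays, and its difference of -0.05 ± 0.09 did not pass (limma adjusted p = 0.642). Vpreb1 and Vpreb2 are near-identical copies, so the signal of one may hold RNA of the other, and their values are uncertain.

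Of the 7 transcription factors, 5 were higher in bone marrow and 1 was lower. Spib, an Ets factor of B cells and plasmacytoid dendritic cells, differed by 3.95 ± 0.12 (SE), limma adjusted p = 3.59e-16. Pax5, which holds the cell to the B lineage, differed by 2.54 ± 0.11. Bach2, a repressor of the plasma cell program, differed by 2.60 ± 0.11. The octamer coactivator Pou2af1 differed by 2.60 ± 0.11 and Ikzf3 (Aiolos) by 3.00 ± 0.14. Pou2f2 (Oct-2) differed by 0.97 ± 0.10, under 2-fold over the ages, and was called at 6 months (1.39 ± 0.17).

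Ebf1 ran the other way. Its bone marrow values were 9.04, 8.34 and 8.80 at 6 months, 9.54, 9.42 and 9.76 at 14 months and 8.51, 8.19 and 8.96 at 18 months. Its epididymal values at the same ages were 10.63, 10.88 and 10.90, then 10.35, 10.49 and 10.55, then 10.89, 10.78 and 10.90. Every epididymal array was above every marrow array, with a difference over the ages of -1.76 ± 0.10 (SE), limma adjusted p = 1.19e-11. At 14 months the difference narrowed to -0.89 ± 0.18, under 2-fold. Ebf1 is also a transcription factor of adipocytes, and all 9 measured adipocyte markers were lower in bone marrow, with a summed linear level of 1110 to 1750 against 53000 to 53500 in the epididymal preparations at 6 months. The part of adipocyte RNA in the Ebf1 difference was not tested.

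All 6 genes of the receptor and its relay, and all 10 surface genes, were higher in bone marrow over the ages. With ribosomal protein genes set equal, which shifted all probe sets by a median of -0.71, the surface genes Cd22, Cr2 and Tnfrsf13c lost their calls. The signalling chains Cd79a (3.26 ± 0.15) and Cd79b (3.17 ± 0.14) and the kinase Btk (3.18 ± 0.13) had similar differences. The adaptor Blnk (2.47 ± 0.13), the scaffold Bank1 (2.43 ± 0.11) and the Src-family kinase Blk (2.23 ± 0.11) followed. Among the surface proteins, Ms4a1 differed by 3.33 ± 0.14, the coreceptor Cd72 by 3.36 ± 0.18 and the tetraspanin Cd37 by 3.14 ± 0.08. The smallest measured differences of the group were those of Tnfrsf13c, the receptor for the survival factor BAFF (1.11 ± 0.15), Cr2 (1.58 ± 0.14) and Cd22, an inhibitory receptor (1.63 ± 0.11). Differences in between were found for Fcer2a, the low-affinity receptor for IgE (1.86 ± 0.13), Fcmr, the receptor for IgM (2.32 ± 0.13), and the Fc receptor-like gene Fcrla (2.57 ± 0.13).

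Cd24a, which many other blood cells also carry, had the largest measured difference of the 36, 5.31 ± 0.29 (SE), limma adjusted p = 3.21e-12. In epididymal preparations at 6 months it read 9.06, 6.06 and 6.22, so replicate 1 stood well above the other 2, and its SD of 1.69 was the widest of any member in any group. The 10 neutrophil markers summed to 648 to 9130 on the linear scale in that group, with replicate 1 highest. Replicate 1 also had the highest mean log2 value of the erythroid markers (7.61 against 6.21 and 6.38) and of the proliferation genes (6.05 against 5.13 and 4.97). It was not the highest for T and NK cell, macrophage or dendritic cell markers. The part of other cells in the Cd24a value was not tested. In bone marrow Cd24a read between 11.78 and 12.51 on all 9 arrays.

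In the group of plasma and activated cells, Bst1 (2.84 ± 0.14) and Mzb1 (1.85 ± 0.16), a chaperone for IgM, were higher in bone marrow. Bst1 is an enzyme also present on early B-lineage, stromal and myeloid cells. It is counted in this group, but its values are not read as those of plasma cells or of a late stage. Tnfrsf13b, the receptor TACI, differed by 0.98 ± 0.08 and passed the 2-fold limit only at 14 months. Sdc1 (CD138), which epithelia also make, differed by 0.38 ± 0.11 and was under 2-fold at each age.

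**Figure D2:**
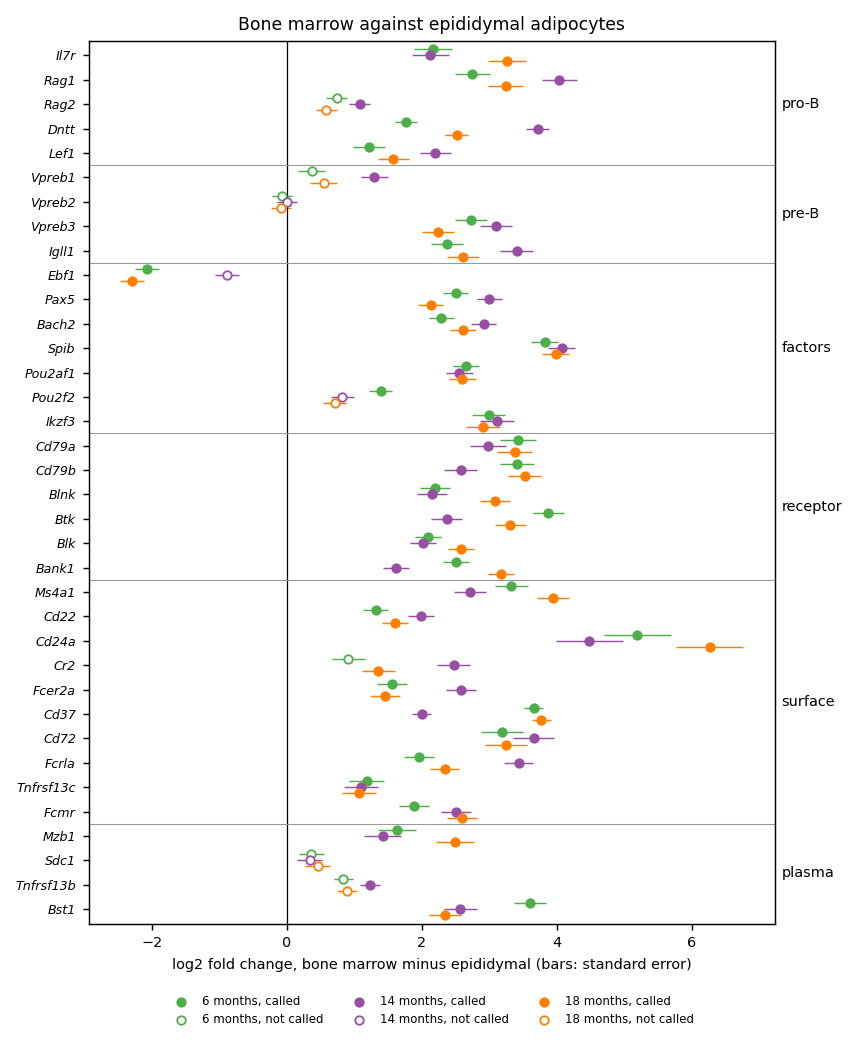
Log2 difference between bone marrow and epididymal preparations for each of the 36 genes at 6, 14 and 18 months, with bars for the standard error of the fitted contrast (3 arrays per group). Filled points passed an adjusted p under 0.05 and a 2-fold difference. Ebf1 lies left of 0 at each age and Vpreb2 lies at 0.

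In bone marrow, most B-lineage genes were higher at 14 months than at 6 months. The rise was called for 25 of 36 members (adjusted p under 0.05), where 5.08% of all tested probe sets rose, and none fell, where 3.58% of all did. The median member change was 1.01, against -0.02 over all probe sets. For 27 members all 3 arrays of 14 months lay above all 6 marrow arrays of the other ages, as they did for 6.9% of all probe sets. Without 14-month replicate 3, which was the highest of its group for 28 of the 36 members, 19 members were called. Under every alternative fit 15 of the 25 kept their calls. Rag1, Vpreb1, Ebf1, Bach2, Ikzf3, Blnk, Bank1, Cd72, Fcmr and Sdc1 each lost theirs at least once.

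The 14-month rise in bone marrow took in early and late genes. It was called for 4 of 5 pro-B genes, 1 of 4 surrogate light chain genes and 6 of 7 transcription factors. The call was also made for 4 of 6 receptor genes, 7 of 10 surface genes and 3 of 4 plasma and activated cell genes, all but Bst1. Dntt rose by 1.88 ± 0.17 (SE), limma adjusted p = 3.75e-06, or 3.68-fold, with the values given above. Il7r went from 8.16, 7.60 and 8.16 to 9.17, 9.26 and 9.45, with no overlap between the ages. Its change was 1.32 ± 0.28 (SE), limma adjusted p = 0.00558. Rag1 went from 6.68, 7.90 and 7.68 to 8.45, 8.59 and 8.66, a change of 1.15 ± 0.26 (SE), limma adjusted p = 0.00880. That call was lost with array weights and in a fit of the compared groups alone. Lef1 rose by 1.18 ± 0.23.

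Of the surrogate light chain genes, Vpreb1 passed narrowly (0.68 ± 0.20 (SE), limma adjusted p = 0.0419) and lost its call in 5 alternative fits and when single arrays were left out. Igll1, at 0.76 ± 0.24, did not pass (limma adjusted p = 0.0555), although its 3 values at 14 months lay above those at 6 months. Vpreb3 was at 0.58 ± 0.24 and Vpreb2 at 0.10 ± 0.15, and neither passed.

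Among the factors, Spib rose by 1.28 ± 0.20, Pax5 by 1.20 ± 0.19, Pou2af1 by 1.13 ± 0.20, Ikzf3 by 1.07 ± 0.25, Ebf1 by 0.85 ± 0.18 and Bach2 by 0.68 ± 0.19. Pou2f2 stood at -0.04 ± 0.17. Without 14-month replicate 3 the call for Ikzf3 was lost. Ebf1 lost its call when only the compared groups were fitted, and Bach2 in several fits. Pax5 read 7.89, 8.11 and 7.59 at 6 months and 8.77, 9.04 and 9.37 at 14 months, and Spib went from 9.21, 8.77 and 8.98 to 10.19, 10.25 and 10.36. In both genes the ages did not overlap.

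Genes of the mature cell were among the largest rises. Cr2, the complement receptor, read 4.83, 5.34 and 5.29 in bone marrow at 6 months and 7.45, 6.74 and 7.68 at 14 months, a rise of 2.13 ± 0.25 (SE), limma adjusted p = 4.56e-05. Its values at 6 months lay under the median of all values, so the rise is no exact fold. Ms4a1 went from 7.84, 7.83 and 7.21 to 9.25, 9.22 and 9.80, a rise of 1.80 ± 0.24 (SE), limma adjusted p = 0.000164. Neither gene overlapped between the ages. Fcrla (1.47 ± 0.22), Cd72 (1.37 ± 0.31), Fcmr (1.36 ± 0.22), Cd22 (1.35 ± 0.19) and Fcer2a (1.27 ± 0.22) also rose. Cd72 lost its call without 14-month replicate 3, and Fcmr in a fit of the compared groups alone. Cd37 (0.33 ± 0.14), Tnfrsf13c (0.34 ± 0.26) and Cd24a (-0.44 ± 0.50) did not pass, and the 3 values of Cd24a at 14 months lay below those at 6 months.

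In the receptor group, Cd79a read 8.87, 9.01 and 9.10 at 6 months and 10.56, 10.34 and 10.63 at 14 months, a rise of 1.52 ± 0.26 (SE), limma adjusted p = 0.00145. Blk rose by 1.03 ± 0.19, Blnk by 0.99 ± 0.22 and Bank1 by 0.90 ± 0.19. Blnk lost its call without 14-month replicate 3, and Bank1 in a fit of the compared groups alone. Cd79b was at 0.51 ± 0.25 and Btk at -0.23 ± 0.23, without a call. Of the plasma and activated cell genes, Mzb1 rose by 1.49 ± 0.28 (SE), limma adjusted p = 0.00260. Tnfrsf13b rose by 0.94 ± 0.14 and Sdc1 by 0.62 ± 0.18, the last with a call that was lost in many fits. Bst1 stood at 0.01 ± 0.24.

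Other cell types moved in the same comparison. In bone marrow at 14 months 6 of 14 T and NK cell markers and 5 of 9 macrophage markers were higher than at 6 months. The macrophage markers summed to 7120 to 9480 on the linear scale, against 4700 to 5460 at 6 months, and the T and NK markers to 2010 to 2190 against 1940 to 2210. Lower at 14 months were 5 of 8 endothelial markers (834 to 1390 against 1530 to 1710), 4 of 10 fibroblast and stromal markers (1110 to 2010 against 2030 to 3600) and 3 of 9 proliferation genes (6210 to 6440 against 8920 to 12700). Their part in the B-lineage changes was not tested.

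**Figure D3:**
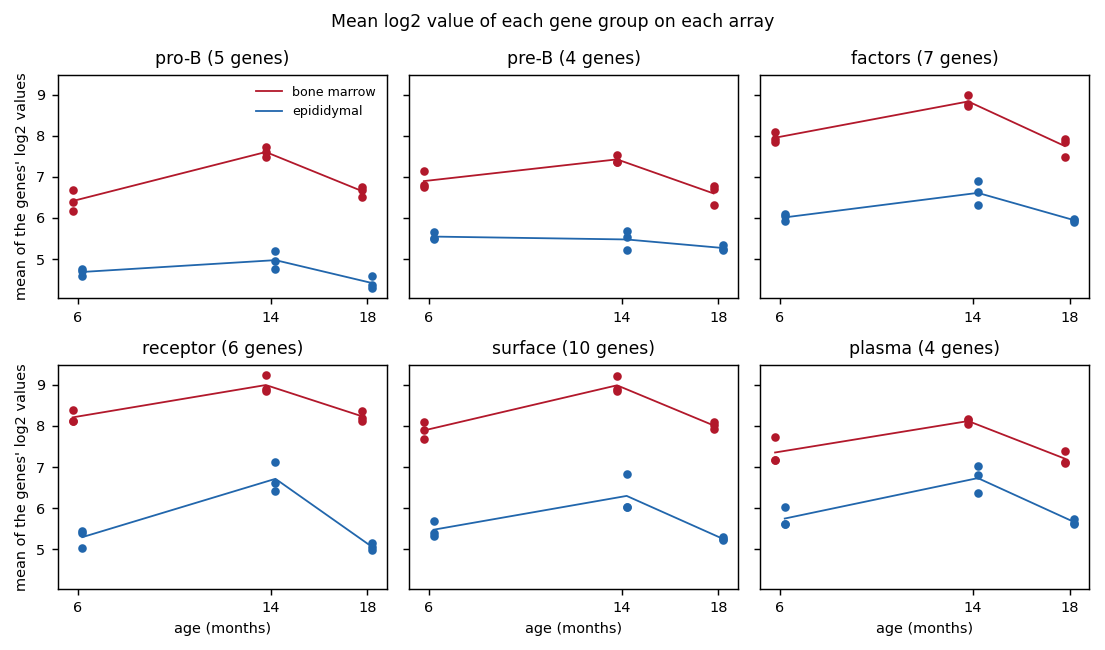
Mean log2 value of the measured genes of each stage group on each array (points), by age in months, with lines through the group means of bone marrow and epididymal preparations. The marrow means peak at 14 months in each panel, and 4 of the 9 pro-B and pre-B genes lie under 5.54 on every epididymal array.

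By 18 months most bone marrow values were back near those of 6 months, with Mzb1 among the exceptions. Between 14 and 18 months 29 of 36 members fell, where 8.23% of all probe sets fell, with a median of -0.93 against -0.03 over all probe sets. The largest measured falls were those of Fcer2a (-1.65 ± 0.22 (SE), limma adjusted p = 8.95e-05), Cr2 (-1.64 ± 0.25), Bst1 (-1.47 ± 0.24), Cd79a (-1.47 ± 0.26) and Fcrla (-1.42 ± 0.22). All 7 transcription factors fell, from -0.62 ± 0.17 for Pou2f2 to -1.39 ± 0.19 for Pax5, and the call for Pou2f2 was lost in 4 alternatives. Of the 29 falls, 19 kept their calls under every alternative fit with the limits on p and fold unchanged. Rag1 (-0.73 ± 0.26, limma adjusted p = 0.0733) and Cd24a (0.59 ± 0.50) were among the 7 that were not called. These falls use the same 14-month arrays as the rises, so they are not separate evidence. The erythroid markers were higher on 4 of 7 genes in the same step, with a summed level of 24400 to 24900 at 18 months against 12000 to 15400 at 14 months. Of the proliferation genes 4 of 9 were higher (9260 to 11700 against 6210 to 6440). The share of all probe sets that rose in this step is not given here, and the part of these cells was not tested.

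From 6 to 18 months directly, 3 of 36 members were called in bone marrow, which is 8.33% beside 8.5% of all probe sets in either direction. Dntt was higher at 18 months (0.60 ± 0.17 (SE), limma adjusted p = 0.0306), while Pou2f2 (-0.66 ± 0.17) and Bst1 (-1.46 ± 0.24) were lower. The median member change was 0.04. The largest measured rise was that of Mzb1 (0.78), which was not called. Mzb1 read 6.64 to 7.02 at 6 months and 7.51 to 7.92 at 18 months, without overlap, and its fall from 14 months was not called either. With the ribosomal protein genes set equal, 2 members were higher and 1 lower. Bst1 read 9.48, 8.52 and 8.40 at 6 months, 8.73, 8.67 and 9.02 at 14 months and 7.58, 7.40 and 7.03 at 18 months, so its 14-month arrays overlapped those of 6 months and stood above those of 18 months. With 6-month replicate 2 or with 18-month replicate 2 left out, 1 member was called.

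In epididymal preparations, too, many B-lineage genes were highest at 14 months. The rises called were of Il7r and of receptor, factor, surface, plasma and activated cell genes. Of the 36 members, 20 rose from 6 to 14 months, where 10.2% of all probe sets rose, and none fell, where 7.51% of all fell. The median change was 0.66, against -0.04 for all probe sets. For 19 members the 3 arrays of 14 months lay above all 6 other epididymal arrays, as for 11.6% of all probe sets. Without 14-month replicate 1, the highest of its group for 25 of the 36 members, 13 were called.

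**Figure D4:**
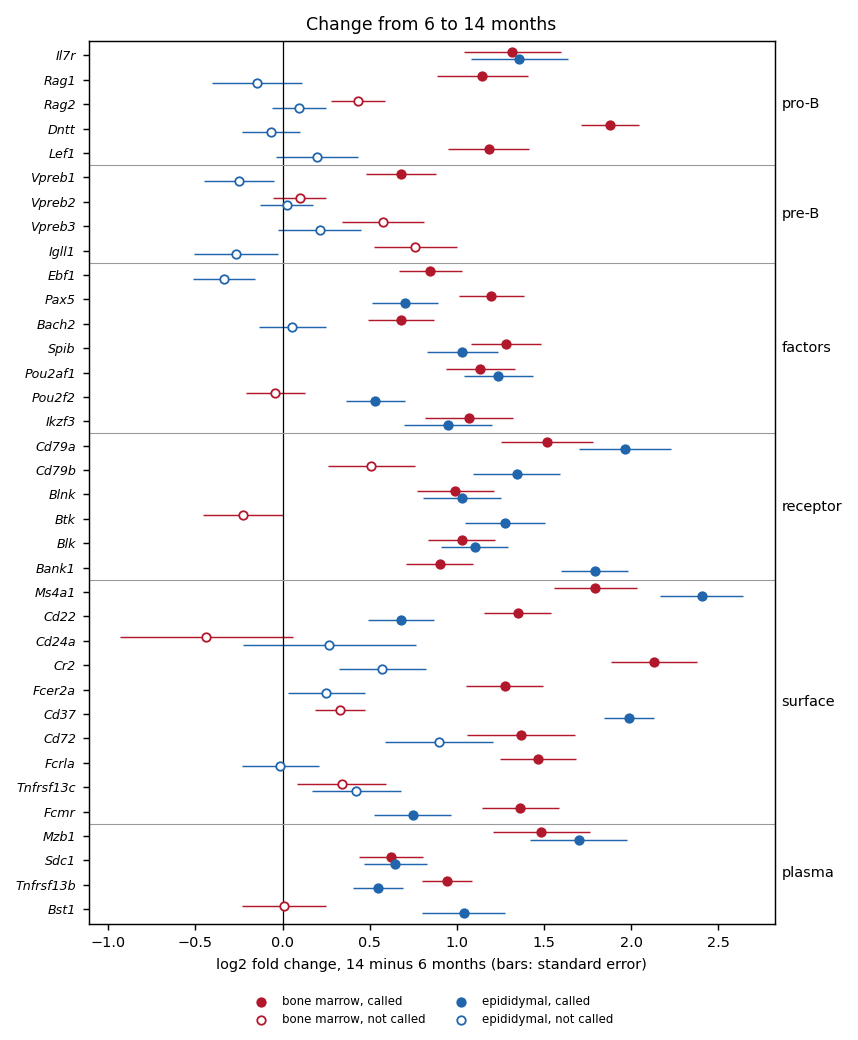
Log2 change from 6 to 14 months of each of the 36 genes in bone marrow and in epididymal preparations, with bars for the standard error of the fitted contrast (3 arrays per group). Filled points passed an adjusted p under 0.05. The bone marrow change lies right of the epididymal one for Dntt, Cr2, Fcrla and Ebf1 and left of it for Cd37 and Btk. These are the 6 genes whose difference kept its call under every alternative fit.

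All 6 receptor genes rose in epididymal preparations at 14 months, with a median of 1.31. Cd79a read 5.95, 4.72 and 6.03 at 6 months and 7.97, 7.45 and 7.18 at 14 months, with no overlap, and rose by 1.97 ± 0.26 (SE), limma adjusted p = 2.56e-05. Bank1 went from 4.92, 4.95 and 5.08 to 7.15, 6.67 and 6.51, a rise of 1.79 ± 0.19 (SE), limma adjusted p = 1.84e-06. Cd79b (1.34 ± 0.25), Btk (1.28 ± 0.23), Blk (1.10 ± 0.19) and Blnk (1.03 ± 0.22) rose as well. Bank1, Btk and Blk lay under the median of all values on all 3 arrays at 6 months, so their rises are no exact folds.

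Ms4a1 read 4.48, 4.22 and 4.20 at 6 months, 7.42, 6.24 and 6.47 at 14 months and 4.18, 4.39 and 4.20 at 18 months, so the 14-month arrays stood apart from both other ages. The measured rise was 2.41 ± 0.24 (SE), limma adjusted p = 6.84e-07, from values at 6 months under the median of all values, so it is no exact fold. Cd37 rose by 1.99 ± 0.14 (SE), limma adjusted p = 1.19e-08, with values of 8.70, 8.36 and 8.21 after 6.64, 6.49 and 6.17. Cd22 and Fcmr were the other surface genes called (0.68 ± 0.19 and 0.75 ± 0.22), and both calls were lost without 14-month replicate 1. The values of Cd22 at 6 months also lay under the median of all values. Cr2 (0.57 ± 0.25), Fcer2a (0.25 ± 0.22), Cd72 (0.90 ± 0.31), Fcrla (-0.01 ± 0.22), Tnfrsf13c (0.42 ± 0.26) and Cd24a (0.27 ± 0.50) did not pass.

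All 4 genes of the plasma and activated cell group rose, among them Bst1, which is not particular to these cells. Mzb1 read 5.92, 4.92 and 4.90 at 6 months and 7.65, 6.91 and 6.27 at 14 months, a rise of 1.70 ± 0.28 (SE), limma adjusted p = 0.000225. Bst1 rose by 1.04 ± 0.24, Sdc1 by 0.65 ± 0.18 and Tnfrsf13b by 0.55 ± 0.14, the latter pair losing their calls without 14-month replicate 1. Among the factors, Pou2af1 (1.24 ± 0.20), Spib (1.03 ± 0.20), Ikzf3 (0.95 ± 0.25), Pax5 (0.70 ± 0.19) and Pou2f2 (0.53 ± 0.17) rose, and the last 3 of these lost their calls without 14-month replicate 1. Spib, Ikzf3, Pax5 and Pou2f2 lay under the median of all values on all 3 arrays at 6 months. Bach2 (0.06 ± 0.19) and Ebf1 (-0.34 ± 0.18) did not pass.

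Of the 9 pro-B and pre-B genes, 1 rose, which is 11.1% and near the 10.2% of all probe sets that rose. It was Il7r, which read 5.63, 6.11 and 5.69 at 6 months and 8.08, 7.03 and 6.39 at 14 months (1.36 ± 0.28 (SE), limma adjusted p = 0.00167). Dntt read 4.51, 4.26 and 4.26 at 6 months and 4.27, 4.30 and 4.27 at 14 months, a change of -0.06 ± 0.17. Rag1 read 4.82, 4.35 and 4.87 at 6 months and 4.29, 4.53 and 4.77 at 14 months, a change of -0.15 ± 0.26. Both genes overlapped between the ages, and their values lay under the median of all values on all 9 epididymal arrays, so a change at this level may not be seen. Rag2, Lef1, Vpreb1, Vpreb2, Vpreb3 and Igll1 changed by between -0.27 and 0.21, and none passed.

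Macrophage and stromal markers rose in the same epididymal preparations. All 9 macrophage markers were higher at 14 than at 6 months, with summed levels of 8860 to 12400 against 1910 to 2140, and they stood at 796 to 832 at 18 months. Higher too were 8 of 10 fibroblast markers (22200 to 27400 against 10900 to 11600), 5 of 8 endothelial markers (5340 to 6040 against 3470 to 3780) and 4 of 14 T and NK markers (696 to 973 against 415 to 449). Btk, Cd37 and Bst1 are also made by myeloid cells. The part of these cells in the B-lineage changes was not tested.

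From 14 to 18 months 21 of 36 members fell in epididymal preparations, where 12.5% of all probe sets fell, with a median of -0.77 against -0.01 over all probe sets. Cd37 (-2.49 ± 0.14 (SE), limma adjusted p = 3.90e-10), Ms4a1 (-2.45 ± 0.24), Il7r (-2.18 ± 0.28) and Bank1 (-2.04 ± 0.19) had the largest measured falls. Of the 21 falls, 15 kept their calls under every alternative fit with the limits on p and fold unchanged. At 18 months Ms4a1, Il7r and Bank1 lay under the median of all values on all 3 arrays. Directly from 6 to 18 months 3 members were lower, which is 8.33% beside 8.01% of all probe sets: Blnk (-0.86 ± 0.22 (SE), limma adjusted p = 0.0127), Cd37 (-0.50 ± 0.14) and Il7r (-0.83 ± 0.28). With 6-month replicate 1 or 2 left out, or any of the 18-month arrays, 1 of the 3 was called.

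Whether the 14-month change differed between bone marrow and epididymal preparations was tested as an interaction. It was larger in bone marrow for 7 members, where 5.07% of all probe sets were, and smaller for 3, where 6.53% were. The 3 are a share of the 36 members near that of all probe sets, so they are given as single genes only. The split was 10 larger and 2 smaller with each array centred on its median, and 11 and 2 with the ribosomal protein genes set equal. Larger in bone marrow were Dntt (1.94 ± 0.23 (SE), limma adjusted p = 1.39e-05), Cr2 (1.56 ± 0.35), Fcrla (1.48 ± 0.31), Rag1 (1.29 ± 0.37), Ebf1 (1.19 ± 0.25), Fcer2a (1.02 ± 0.31) and Vpreb1 (0.93 ± 0.28). Smaller in bone marrow were Cd37 (-1.66 ± 0.20 (SE), limma adjusted p = 1.62e-05), Btk (-1.51 ± 0.32) and Bank1 (-0.89 ± 0.27). Igll1 (1.03 ± 0.34, limma adjusted p = 0.0566) and Lef1 (0.99 ± 0.33, limma adjusted p = 0.0624) missed the threshold. Il7r, at -0.04 ± 0.39, Pou2af1, at -0.10 ± 0.28, and Blk, at -0.07 ± 0.27, had differences near 0. Without epididymal 6-month replicate 3 the calls numbered 6 in place of 10, and Rag1, Vpreb1, Fcer2a and Bank1 lost their calls under several alternatives. Among the 9 pro-B and pre-B genes the difference was called for 3, Dntt, Rag1 and Vpreb1, and the epididymal values of these and of Cr2 lay under the median of all values on all 9 arrays. The epididymal values of Btk, Bank1 and Fcer2a lay under it on all 3 arrays at 6 months.

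**Figure D5:**
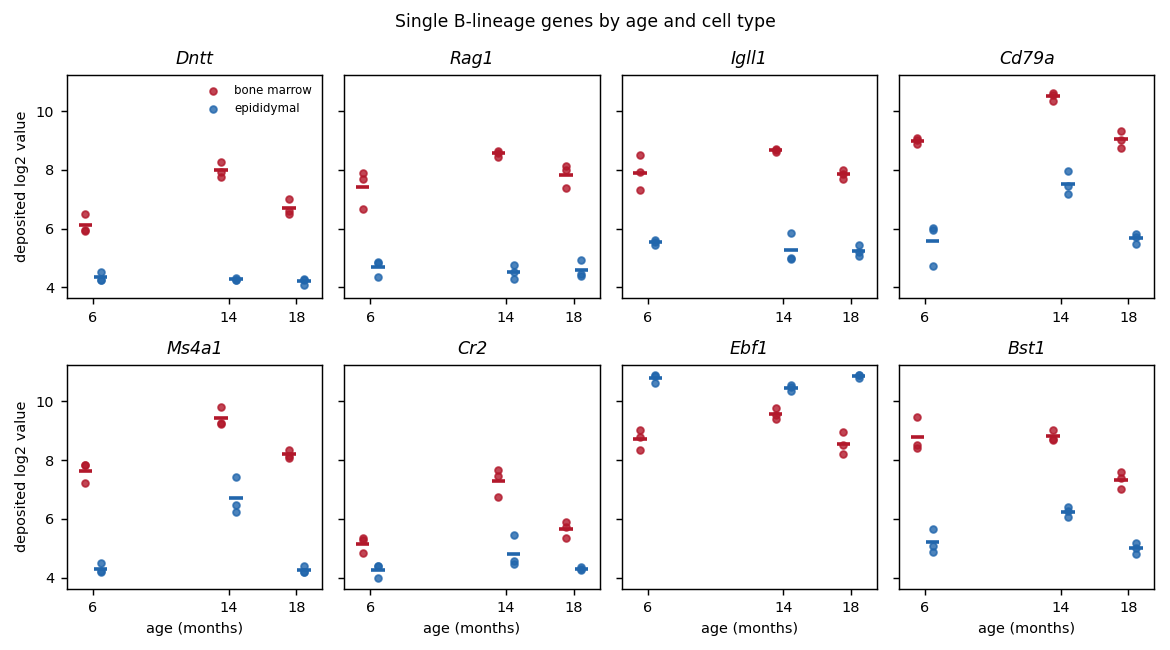
Deposited log2 values of 8 members on the 18 arrays (points) by age in months, with bars at the group means of bone marrow and epididymal preparations. Dntt, Rag1 and Igll1 stay low in epididymal preparations at every age, while Cd79a and Ms4a1 peak at 14 months in both.

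At 18 months the change from 6 months differed between the cell types for 1 of 36 members, which is 2.78% beside 8.51% of all probe sets in either direction. That member was Bst1 (-1.26 ± 0.34 (SE), limma adjusted p = 0.0276), which was lower at 18 months in bone marrow and not in epididymal preparations (-0.20 ± 0.24). With the ribosomal protein genes set equal, 3 members had a larger change in bone marrow and 0 a smaller one. Leaving out single arrays gave between 0 and 3 calls. There was no call without 6-month replicate 2, 6-month replicate 3 or 18-month replicate 2 of the epididymal groups, or without 18-month replicate 3 of the marrow. Leaving out 6-month replicate 1 or 3, 14-month replicate 3 or 18-month replicate 1 of the marrow gave 2 or 3 calls, and 14-month replicate 1 or 3 of the epididymal group gave 3.

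The members sit in wider pathways, which were followed through 5 lists of 60 other genes, 52 of them measured. In the comparisons used here 10.2% of all tested probe sets were higher and 11.6% lower in bone marrow over the ages. In the 14-month step of the marrow 5.08% rose and 3.58% fell. In that of the epididymal preparations the shares were 10.2% and 7.51%. Of 9 further genes of the receptor relay, 7 were higher in bone marrow over the ages, and 1, the tetraspanin Cd81, was lower. In the 14-month step 1 rose in bone marrow (median change 0.40) and 8 in epididymal preparations (median 1.32). The tyrosine kinase Syk, which Cd79a and Cd79b recruit, rose by 1.45 ± 0.18 in epididymal preparations, and the lipase Plcg2 by 1.30 ± 0.19. Both are also used by myeloid cells. Rasgrp3, which links the receptor to Ras, was the gene that rose in bone marrow (1.29 ± 0.20), and it rose in epididymal preparations as well (1.23 ± 0.20).

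Among 13 further transcription factors, 9 were higher in bone marrow over the ages and 2, Foxo1 and Id3, were lower. Myb had the largest of these differences (4.15). At 14 months 5 rose in bone marrow (Irf4, Sox4, Foxo1, Bcl6 and Id3), with a median change of 0.33. In epididymal preparations 4 rose (Ikzf1, Spi1, Erg and Bcl11a) and 3 fell (Irf4, Bcl6 and Id3), with a median of -0.01. Bcl6, Id3, Erg, Bcl11a and other genes given here by name without a value were picked after their values were seen. Irf4, needed in pre-B cells and again in plasma cells, rose by 1.39 ± 0.19 in bone marrow and fell by 0.70 ± 0.19 in epididymal preparations, a difference of 2.08 ± 0.27 (SE), limma adjusted p = 3.62e-05. Sox4 and Foxo1, factors of early B cells, rose in bone marrow (1.30 ± 0.23 and 1.01 ± 0.18). Foxo1 was, like Ebf1, lower in bone marrow over the ages (-1.25 ± 0.10), and it too has a role in adipocytes. Of 9 genes listed for IL-7 signalling, 1 was higher in bone marrow over the ages, the progenitor receptor Flt3 (1.63 ± 0.10). At 14 months 1 rose there, Stat5b (0.56 ± 0.10). Each is 11.1% of the 9 and rests on a single gene, and the first is near the share of all probe sets. In epididymal preparations 3 of the 9 fell: the kinase Jak1 (-0.30 ± 0.09) and the feedback inhibitors Socs1 and Cish. The medians of the 9 were 0.11 in bone marrow and 0.02 in epididymal preparations.

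Of 12 genes listed for plasma cell secretion, 5 were higher in bone marrow over the ages and 3 rose there at 14 months (median 0.43). In epididymal preparations 4 rose (Jchain, Slamf7, Tnfsf13b and Creld2, median 0.30). Tnfsf13b, counted among the 5 and the 4, is the survival factor BAFF and not a gene of secretion. All 9 macrophage markers rose in the same epididymal step, and their part was not tested. Jchain, which joins secreted IgM and IgA, stood at 9.95 ± 0.30 (SD, n = 3) in bone marrow at 6 months and at 10.84 ± 0.058 at 14 months. At 18 months it was still at 10.92 ± 0.27 (SD) there, and the change from 6 months was not called. In epididymal preparations it went from 5.11 ± 0.56 to 9.38 ± 0.90 and was back at 5.02 ± 0.26 at 18 months. That 14-month rise (4.27 ± 0.33 (SE), limma adjusted p = 2.61e-08) was larger than in bone marrow by 3.38 on the log2 scale. Prdm1, the factor that turns a B cell into a plasma cell, rose in bone marrow (2.00 ± 0.16 (SE), limma adjusted p = 1.78e-06) and was at 0.29 ± 0.16 in epididymal preparations. Derl3 (1.39 ± 0.20), of the secretory pathway, and Slamf7 (1.17 ± 0.21) also rose in bone marrow.

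Of 9 genes of homing and the niche, 6 were higher in bone marrow over the ages, with the largest difference for Itga4 (3.77). Among the 6 were also Cxcr4, which holds B cells in the marrow (3.61 ± 0.18), and its ligand Cxcl12 (2.83 ± 0.12). At 14 months 3 rose in bone marrow and 1, the stem cell factor gene Kitl, fell (median change 0.38), and 7 rose in epididymal preparations (median 1.00). The risers in bone marrow guide mature lymphocytes: Cxcr5 (1.38 ± 0.25), S1pr1 (1.15 ± 0.15) and Ccr7 (1.14 ± 0.29). Cxcr5 and S1pr1 rose in epididymal preparations too (1.04 ± 0.25 and 0.78 ± 0.15). Mean S1pr1 was higher there than in bone marrow at 6 months (8.64 against 7.64) and 14 months (9.42 against 8.79), and lower at 18 months (7.08 against 7.66). S1pr1 is thus not read as a signal of lymphocytes alone. In the same epididymal step 5 of 8 endothelial markers rose, and their part was not tested.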

How the data were processed

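Values were used as deposited. According to their methods, the authors processed the scans with gcRMA in Partek, quantile normalised them and deposited log2 values. The table holds 35556 probe sets, of which the 23410 that name a gene in the platform annotation were tested. All 18 arrays were fitted together, each of the 6 groups with its own mean (limma 3.58.1, R 4.3.3, lmFit and eBayes), after the analysis of variance of the study. P values were adjusted by Benjamini-Hochberg within each of 12 contrasts over all tested probe sets. A call needs an adjusted p under 0.05, and between cell types also a fold of 2. Summed levels add 2 to the power of the values. Members and lists were chosen with earlier results of these data known. Every member is named. Of each list of other genes, those among the 3 largest changes between cell types or in bone marrow at 14 months were selected. Of these, Ptpn6 and Crlf2 are not described. Some genes named without a value lie outside this rule and were picked after their values were seen. Replicate numbers were checked as pairs: of 9 same-numbered bone marrow and epididymal arrays, 1 pair correlated above 0.1 in its deviations, so they were not treated as pairs. Promoter windows are those of RefSeq GRCm38.p6. The fit was tested on simulated data. Raw scans and quantitative PCR were not used here, and figures were drawn with matplotlib 3.10.9. Alternative fits changed the scaling, filter, test or samples. Other limits on p and fold were tried apart from these fits, for counts of members only.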

Additional observations from a re-analysis of the deposited data

Results flagged for a closer look

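The following members changed differently with age in bone marrow and epididymal preparations, by the interaction term of the limma fit, and each value is the bone marrow change minus the epididymal change on the log2 scale with its SE. From 6 to 14 months the change was larger in bone marrow by 1.94 ± 0.23 for Dntt, 1.56 ± 0.35 for Cr2, 1.48 ± 0.31 for Fcrla, 1.29 ± 0.37 for Rag1, 1.19 ± 0.25 for Ebf1, 1.02 ± 0.31 for Fcer2a and 0.93 ± 0.28 for Vpreb1. For Cd37 it was -1.66 ± 0.20, for Btk -1.51 ± 0.32 and for Bank1 -0.89 ± 0.27. These 3 are a share of the members near that of all probe sets with a smaller change in bone marrow. From 6 to 18 months the difference was -1.26 ± 0.34 for Bst1. Dntt, Cr2, Fcrla, Ebf1, Cd37 and Btk kept their calls under every alternative fit, and the other 5 members did not. The epididymal values of Dntt, Rag1, Vpreb1 and Cr2 lay under the median of all values on all 9 arrays. Those of Btk, Bank1 and Fcer2a lay under it on all 3 arrays at 6 months. The part of such low values in these differences was not tested. With 3 arrays a group, single samples were not tested as outliers.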

How the results depend on the processing

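Of 12480 recomputed member results, 12045 stayed on their side of the threshold, 321 lost a call and 114 gained one. None that passed in either fit reversed, and direction was not compared for results that passed in neither. With the limits on p and fold unchanged, members kept their calls under every alternative fit in 26 of 30 cases over the ages. The counts were 15 of 25 for the 14-month rise in bone marrow and 13 of 20 for that in epididymal preparations. Leaving out 1 array gave 30 to 32 members called between cell types over the ages, 29 to 30 at 6 months, 31 to 32 at 14 months and 29 to 30 at 18 months. In bone marrow it gave 19 to 27 (14 against 6 months), 1 to 4 (18 against 6) and 20 to 31 (18 against 14), and in epididymal preparations 13 to 21, 1 to 3 and 17 to 24. For the difference of the change between cell types it gave 6 to 11 at 14 months and 0 to 3 at 18 months. The fold limit, set at 2 for age changes, left 17 falls from 14 to 18 months in bone marrow, 13 rises at 14 months in epididymal preparations, 1 call in bone marrow and 0 in epididymal preparations for 18 against 6 months. An adjusted p under 0.01 left 13 rises in epididymal preparations, 6 differences at 14 months and 0 at 18 months, 1 bone marrow and 0 epididymal calls for 18 against 6 months. The 10 differences at 14 months became 6 over all probe sets of the table and in an ordinary analysis of variance. The 3 bone marrow calls for 18 against 6 months became 1 in an ordinary analysis of variance, 1 with array weights and 0 in the compared groups alone. The 3 epididymal calls became 1 with quantile normalization repeated and 5 in the compared groups alone. The single difference at 18 months became 2 with quantile normalization repeated, 3 with ribosomal protein genes set equal, 2 without dim probe sets, 0 in an ordinary analysis of variance, 2 with array weights and 2 in the compared groups alone. Setting ribosomal protein genes equal shifted all probe sets by a median of -0.71 between cell types over the ages and ended the calls of Lef1, Cd22, Cr2 and Tnfrsf13c there. Same-numbered arrays are not known to share mice. Of 9 bone marrow arrays, 4 deviated most like the epididymal array of their number, and with the replicate block the bone marrow calls for 18 against 6 months were 5 in place of 3, all other counts staying within 1.5 times. A second probe set of a member could not be tried, since each has 1. The cause of these shifts was not tested, and the 3 arrays of a group limit what small changes can be called.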
